A study of Mus musculus with 6 samples.

Results

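The genes described here are 10 components of cytokine signalling through JAK kinases: the kinases Jak1, Jak3 and Tyk2, the transcription factors Stat3, Stat4, Stat5a and Stat5b, and the feedback inhibitors Socs1, Socs3 and Cish. They were taken by gene symbol from the 46983 genes of the count tables, and all 10 were expressed above the filter for testing. RNA was sequenced from naïve CD4 T cells, sorted from lymph nodes as live TCRb+ CD4+ cells that were CD62L+ and CD44-, in 3 control and 3 Rnmt cKO libraries. RNMT methylates the guanosine cap that is added to the 5′ end of RNA polymerase II transcripts, and the comparison asks which transcripts depend on it in resting T cells.

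All mice were male and carried floxed Rnmt alleles, in which loxP sites flank an internal exon. Controls were labelled Rnmt fl/fl CD4cre - and Rnmt cKO mice Rnmt fl/fl CD4cre +, so the presence of the Cre transgene and the loss of Rnmt cannot be told apart. Cre driven by Cd4 sequence is active from the double-positive stage of thymocyte development, so the cells had matured without intact Rnmt and the CD8 lineage is affected too. Ages are not given in the sources used here. The labels do not say that the libraries of a group came from separate animals. A figure legend of the study gives 3 control and 3 Rnmt cKO mice for the RNA sequencing of naïve CD4 T cells. The p-values measure only the spread between these libraries.

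Cytokine receptors of T cells have no kinase activity of their own and rely on JAK kinases bound to their intracellular tails. When a cytokine brings receptor chains together, the JAKs phosphorylate them and the STAT proteins that dock there, and paired STATs enter the nucleus and bind DNA. Among their targets are the genes of the SOCS family, including Cish, whose products bind JAKs or receptors and end the signal. In naïve T cells the pathway carries the survival signal of interleukin 7 through JAK1, JAK3 and STAT5.

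Sense counts assigned to genes ran from 8873413 to 11277764 per library. Rnmt itself fell from 56.02 ± 3.94 CPM (SD, n = 3; counts scaled to a common library size) to 35.3 ± 7.88 CPM (SD, n = 3; adjusted p = 0.00035 by the edgeR exact test). Across the 12336 genes that were tested, 6.84% passed the threshold as lower in Rnmt cKO cells and 8.0% as higher, and groups did not overlap for 31.4%, of which 16.6% of all tested genes lay higher and 14.9% lower. Reads that fell in no gene made up 36.1%, 39.7% and 46.1% of the uniquely mapped reads of controls 1, 2 and 3, and 47.9%, 46.5% and 31.8% of those of Rnmt cKO 1, 2 and 3, so values are also given below within the libraries of low share (controls 1 and 2 with Rnmt cKO 3) and those of high share (control 3 with Rnmt cKO 1 and 2).

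Of the 10 genes, 5 rose in Rnmt cKO cells (Socs3, Socs1, Jak3, Stat5a and Stat3) and 0 fell, beside 8.0% and 6.84% of all tested genes. The inhibitors Socs3 and Socs1 and the kinase Jak3 changed most, by 3.16-fold, 1.88-fold and 1.81-fold. The remaining 5 genes did not pass the threshold of 0.05 on the Benjamini-Hochberg adjusted p. Of these, Cish passed in 3 of 16 alternatives, including scaling by library size alone (log2 fold change 0.42, adjusted p = 0.0231), under which the median over all tested genes moved from 0.01 to 0.14. The median log2 fold change of the 10 was 0.32, beside 0.01 over all tested genes, and groups did not overlap for 6 of them, all higher in Rnmt cKO cells. Their summed level was 2124 to 2189 CPM in controls and 2666 to 2977 CPM in Rnmt cKO libraries, so the groups did not overlap. RNA was measured in bulk, where a change in RNA per cell and a change in the proportion of a kind of cell cannot be told apart.

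**Figure D1:**
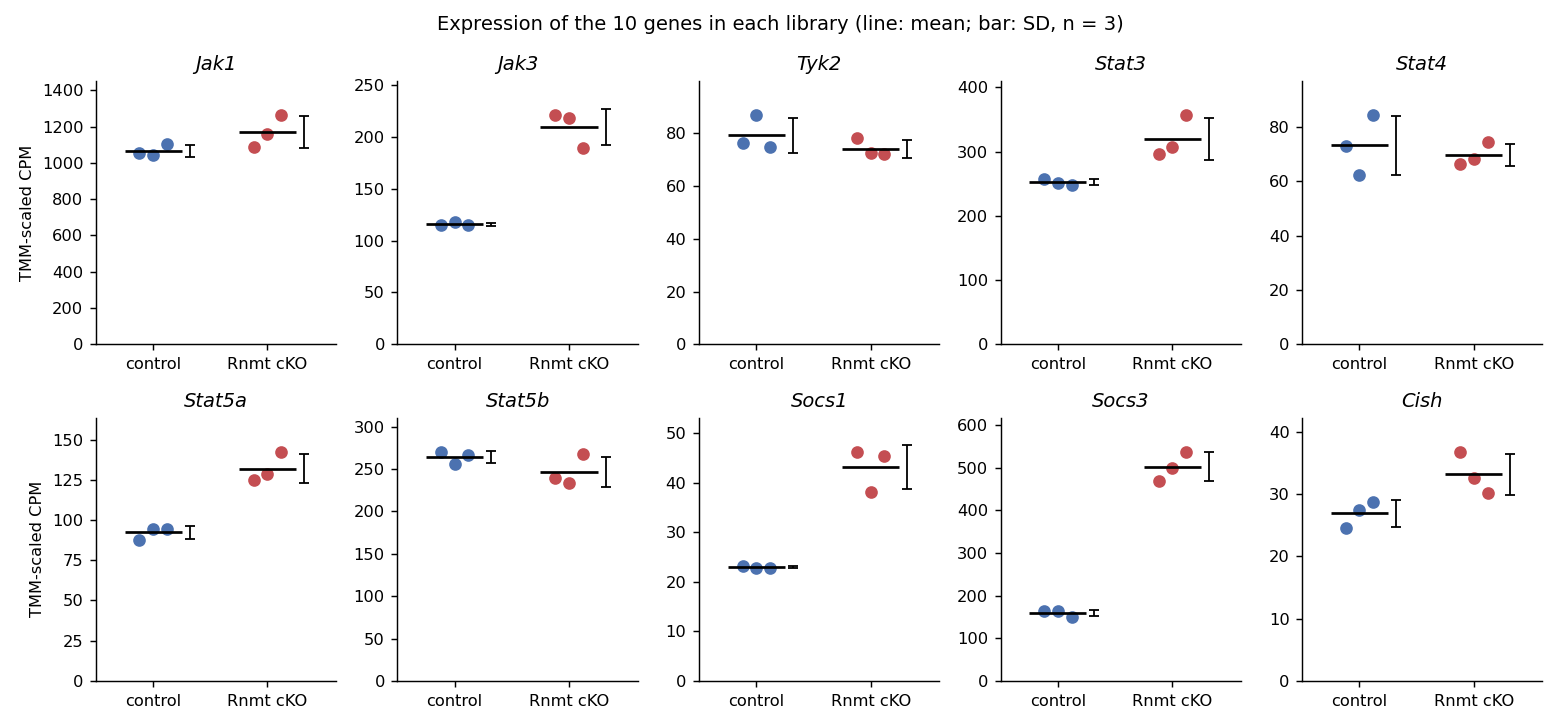
Level of each of the 10 genes in CPM, with 1 panel per gene and a vertical axis from 0, for the 3 control (blue) and 3 Rnmt cKO (red) libraries in the order 1 to 3; lines show the group means and bars the SD. Socs3, Socs1, Jak3, Stat5a and Stat3 lie higher in every Rnmt cKO library than in any control, while Jak1, Tyk2, Stat4 and Stat5b overlap.

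Among the kinases, Jak3 rose and neither Jak1 nor Tyk2 passed the threshold. JAK3 binds the common gamma chain, which the receptors of interleukins 2, 4, 7, 9, 15 and 21 share. The Jak3 gene (ENSMUSG00000031805, chromosome 8, 71676296 to 71690575 of mm10, plus strand) is protein-coding, and its level was 115, 118 and 115 CPM in controls 1 to 3 and 221, 218 and 189.6 CPM in Rnmt cKO 1 to 3. The controls lay within a few CPM of each other and every Rnmt cKO library was far above them. Jak3 thus had a log2 fold change of 0.85 ± 0.07 (SE, n = 3 per group; edgeR exact test, adjusted p = 3.55e-16). Within the libraries of low and of high share of reads in no gene the log2 ratio was 0.71 and 0.93. An exon of Jak3 overlaps Insl3, which lies on the same strand and held 10 to 13 counts in controls and 18 to 33 in Rnmt cKO libraries, beside 977 to 2585 counts for Jak3.

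Jak1 (ENSMUSG00000028530, chromosome 4, 101152367 to 101265282, minus strand), which pairs with JAK3 on gamma chain receptors and also serves interferon and interleukin 6 receptors, was at 1053, 1042 and 1103 CPM in controls and 1088, 1160 and 1262 CPM in Rnmt cKO libraries. Rnmt cKO 1 lay between controls, and the groups overlapped. Its log2 fold change of 0.13 ± 0.07 (SE) had an adjusted p of 0.464. Tyk2 (ENSMUSG00000032175, chromosome 9, 21104068 to 21131243, minus strand), a kinase of interferon and interleukin 12 receptors, was at 76.2, 86.8 and 74.8 CPM in controls and 78.2, 72.4 and 72.2 CPM in Rnmt cKO libraries. Its groups overlapped as well, with a log2 fold change of -0.10 ± 0.08 (SE) and an adjusted p of 0.634. Within the libraries of low and of high share of reads in no gene the log2 ratio was 0.27 and 0.03 for Jak1. For Tyk2 it was -0.18 and 0.01.

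Of the STAT genes, Stat5a and Stat3 rose, and Stat4 and Stat5b did not pass the threshold. STAT5A and STAT5B are closely related proteins activated by gamma chain cytokines. Stat5a (ENSMUSG00000004043, chromosome 11, 100859351 to 100885169, plus strand) was at 87.7, 94.6 and 94.5 CPM in controls and 125, 129 and 142 CPM in Rnmt cKO libraries. The lowest Rnmt cKO library was well above the highest control. This was a 1.43-fold difference, or 0.52 ± 0.07 on the log2 scale (SE; edgeR exact test, adjusted p = 2.74e-06). The log2 ratio was 0.64 in the libraries of low share of reads in no gene and 0.42 in those of high share.

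Stat5b (ENSMUSG00000020919, chromosome 11, 100780731 to 100850724, minus strand), the neighbour of Stat5a, was at 270, 257 and 267 CPM in controls and 239, 233 and 267 CPM in Rnmt cKO libraries. Rnmt cKO 3 reached the level of the controls and the other two lay below them. The difference, -0.10 ± 0.06 on the log2 scale (SE), had an adjusted p of 0.586. The log2 ratio was 0.02 in the libraries of low share of reads in no gene and -0.17 in those of high share. Of the counts on the pair, Stat5a took 24.5% (Wilson 95% interval 23.0% to 26.1%), 26.9% (25.5% to 28.4%) and 26.2% (24.7% to 27.7%) in controls. In Rnmt cKO libraries it took 34.3% (32.8% to 35.9%), 35.6% (34.1% to 37.0%) and 34.7% (33.4% to 36.1%). Such intervals measure counting error within a library alone, and they are too narrow where PCR copies of a molecule are counted as separate reads. The share thus went from 25.9 ± 1.25% to 34.9 ± 0.629% (SD, n = 3), a difference of 8.99 percentage points with no overlap. An exact permutation test (two-sided) gave p = 0.1, and no smaller p is possible with 3 libraries in each group. Only uniquely mapped reads were counted, so reads that match both genes equally well are in neither count.

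**Figure D2:**
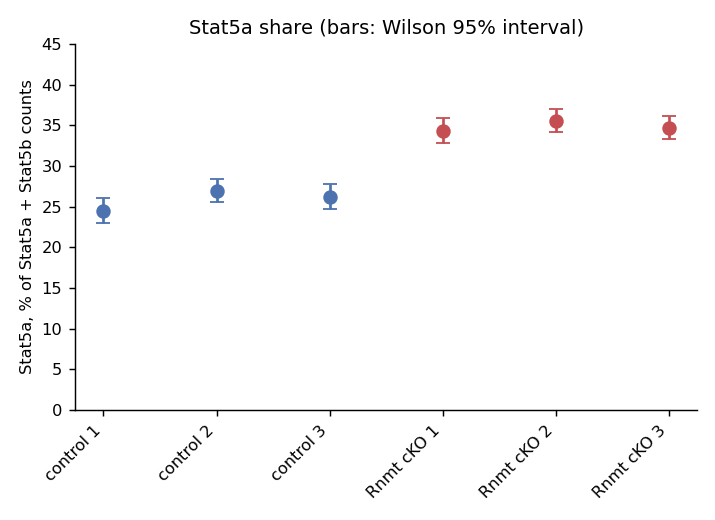
Share of Stat5a in the counts of Stat5a and Stat5b together, in percent, for each control (blue) and Rnmt cKO (red) library, with Wilson 95% intervals as bars. The controls sit between 24.5% and 26.9% and the Rnmt cKO libraries between 34.3% and 35.6%.

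Stat3 (ENSMUSG00000004040, chromosome 11, 100885098 to 100939540, minus strand), which is activated by interleukins 6, 10 and 21, was at 257, 250.4 and 248 CPM in controls and 295, 307 and 356 CPM in Rnmt cKO libraries. The controls were close together, and the Rnmt cKO libraries spread more widely above them. The 1.27-fold difference, 0.34 ± 0.08 on the log2 scale (SE), passed the threshold with an adjusted p of 0.0096. This call was lost without control 2 (log2 fold change 0.34, adjusted p = 0.0883) and without control 3 (0.33, adjusted p = 0.0675). The log2 ratio was 0.49 within the libraries of low share of reads in no gene and 0.28 within those of high share. Stat3 and Stat5a overlap at their ends on opposite strands, and the counts used are those of the sense strand.

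Stat4 (ENSMUSG00000062939, chromosome 1, 51987148 to 52107189, plus strand), which acts downstream of interleukin 12, was at 73.0, 62.5 and 84.3 CPM in controls and 66.5, 68.2 and 74.4 CPM in Rnmt cKO libraries. The controls varied more than the groups differed. On the log2 scale they differed by -0.07 ± 0.13 (SE; adjusted p = 0.797). The direction turned with the share of reads in no gene, with a log2 ratio of 0.14 in the libraries of low share and -0.32 in those of high share.

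The inhibitors held both of the largest changes. SOCS3 inhibits JAKs on receptors that contain gp130, among others, and its gene is a known target of STAT3. Socs3 (ENSMUSG00000053113, chromosome 11, 117966079 to 117970047, minus strand) was at 164, 163 and 150.3 CPM in controls and 470.3, 501 and 537 CPM in Rnmt cKO libraries. The lowest Rnmt cKO library was 2.87 times the highest control, and neither group spread widely. Its log2 fold change of 1.66 ± 0.07 (SE) had an edgeR exact test adjusted p of 6.95e-56, which ranked 5 from the lowest among all tested genes. Within the libraries of low and of high share of reads in no gene the log2 ratio was 1.71 and 1.69.

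SOCS1 inhibits JAKs on receptors for interferons and gamma chain cytokines. Socs1 (ENSMUSG00000038037, chromosome 16, 10782240 to 10785536, minus strand) was at 23.2, 22.9 and 22.8 CPM in controls and 46.2, 38.1 and 45.4 CPM in Rnmt cKO libraries, from 197 to 507 counts. The 3 controls were nearly equal, and every Rnmt cKO library was far above them. Socs1 had a log2 fold change of 0.91 ± 0.09 (SE; adjusted p = 1.16e-11). The log2 ratio was 0.98 in the libraries of low share of reads in no gene and 0.89 in those of high share.

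CIS, the product of Cish, is induced by STAT5 and acts on gamma chain receptors and on the T cell receptor. Cish (ENSMUSG00000032578, chromosome 9, 107296026 to 107302784, plus strand) was at 24.6, 27.4 and 28.8 CPM in controls and 36.8, 32.7 and 30.2 CPM in Rnmt cKO libraries. The groups did not overlap, but Rnmt cKO 3 came close to control 3. The difference of 0.30 ± 0.11 on the log2 scale (SE) did not pass the threshold (adjusted p = 0.101). Without Rnmt cKO 3 the value was 0.34 and the adjusted p 0.0282, and it was 0.27 (adjusted p = 0.0312) with the share of reads in no gene as a covariate. Within the libraries of low and of high share the log2 ratio was 0.22 and 0.27.

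Promoter sequences of RefSeq (GRCm38.p6, 250 bases before to 50 after each transcription start) were found for all 10 genes, 13 promoters in all. STAT dimers bind the letters TTCNNNGAA, which read the same on both strands, so both strands were searched at once. The motif was in 2 of the 13 promoters (15.4%), those of Socs3 and Cish, and in 2726 of 32851 promoters of all genes (8.3%). More than 1 match was found in 7.69% of the 13 promoters and in 0.457% of all. The stretches with a match are shown because they belong to the feedback inhibitors, the known targets of STATs, with the matches in capitals. The Socs3 match begins 154 bases before the start as RefSeq places it (chr11:117969504-117969528, minus strand). The 2 Cish matches lie at positions 1 and 12 of the transcript as RefSeq places its start (chr9:107296654-107296683, plus strand). All of these matches lie inside the gene bounds given above, which begin further upstream.
Socs3: aaccagccTTCTTAGAAgggagggg
Cish: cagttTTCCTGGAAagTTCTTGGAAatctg
Of the genes with a match, Socs3 rose and Cish did not pass the threshold, while Socs1, Jak3, Stat5a and Stat3 rose with none in this window.

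The start sites of the 3 genes with the largest rises are shown because the cap that RNMT methylates sits on the first transcribed base. The base in capitals is the first base as RefSeq places it. The gene bounds given above begin further upstream for Socs3 and Jak3, so the base used in these cells may differ.
Socs3 (chr11:117969352-117969376, minus strand): cggtgagtctCggcgggtcctggag
Socs1 (chr16:10785522-10785546, minus strand): ggcgggcagcAgcagagagaactgc
Jak3 (chr8:71676373-71676397, plus strand): cagcctttctGtctctgcacagctc
By the RefSeq starts the first base differed between the 3 genes. A start of C followed by 4 pyrimidines, the pattern of ribosomal protein mRNAs, was in 0 of the 13 promoters and in 823 of 32851 of all genes (2.51%).

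Levels were compared between genes per length, as RPKM (CPM divided by the exon length in kilobases). In controls the order was Jak1 (217), Socs3 (62.4), Stat5b (47.7), Stat3 (40.5), Jak3 (25.9), Stat4 (23.3), Stat5a (23.3), Tyk2 (14.3), Socs1 (7.88) and Cish (7.39). The libraries of Jak3 and Stat4, of Stat4 and Stat5a, and of Socs1 and Cish overlapped, so these neighbours did not differ beyond their spread. In Rnmt cKO cells the order was Jak1 (238), Socs3 (197), Stat3 (51.3), Jak3 (46.9), Stat5b (44.5), Stat5a (33.3), Stat4 (22.1), Socs1 (14.9), Tyk2 (13.3) and Cish (9.11). There Stat3, Jak3 and Stat5b overlapped in sequence, as did Socs1 and Tyk2. Among the 10, Socs3 stood second in both groups, and in Rnmt cKO cells it lay near Jak1.

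The makeup of each family moved with these changes. Of the summed RPKM of the 4 JAK genes, Jak3 took 8.87 ± 0.209% in controls and 13.7 ± 1.70% in Rnmt cKO cells, and Jak1 took 74.3 ± 1.38% and 69.1 ± 2.02% (SD, n = 3). The summed level of the SOCS family, with Cish, was 104, 102 and 101 RPKM in controls and 233, 244 and 261 RPKM in Rnmt cKO libraries, and the Socs3 share of it went from 60.9 ± 2.18% to 80.1 ± 0.859% (SD, n = 3). Without Socs3 the sum was 40.0 ± 1.75 RPKM and 49.0 ± 1.17 RPKM. These sums are descriptions and were not tested.

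**Figure D3:**
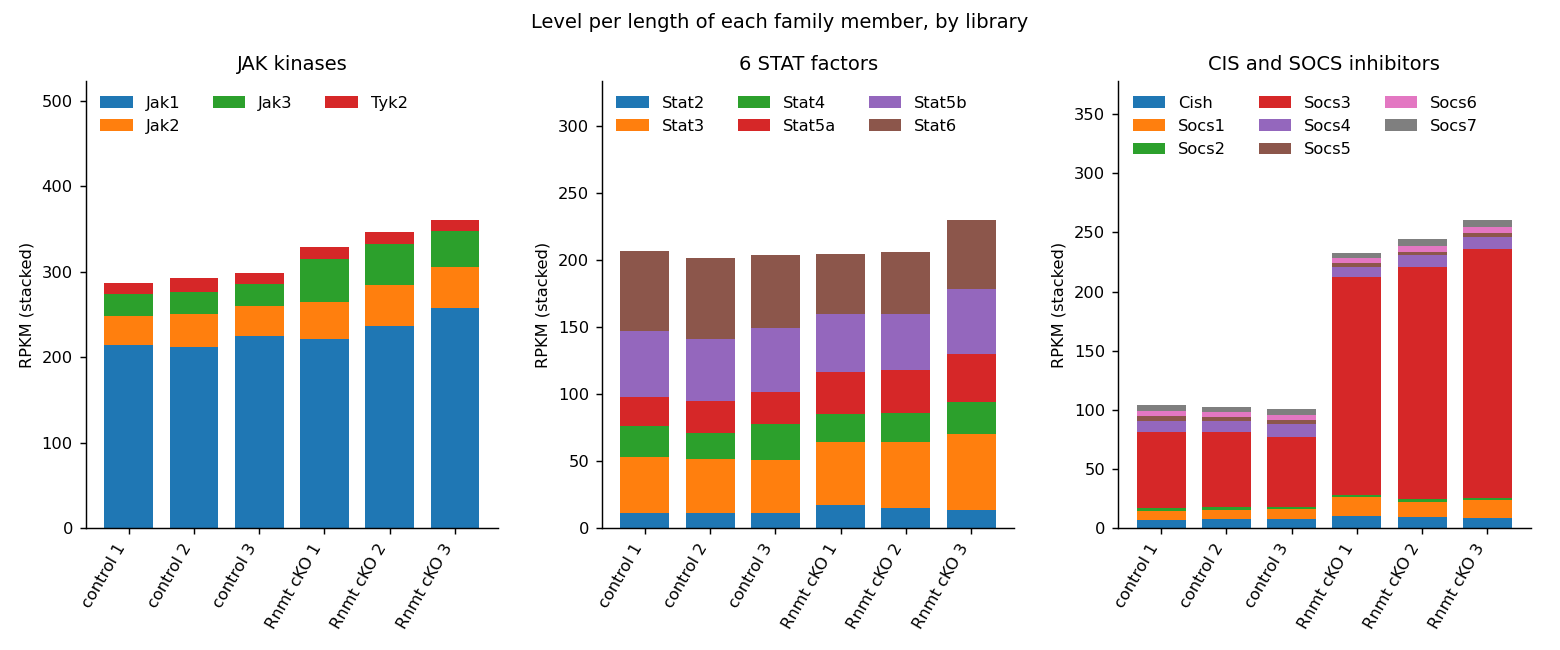
Stacked level in RPKM of the genes of the JAK family (left), 6 genes of the STAT family (middle) and the SOCS family with Cish (right) in each of the 3 control and 3 Rnmt cKO libraries, with 1 colour per gene and axes from 0. The SOCS bars are about 102 RPKM high in controls and 246 RPKM in Rnmt cKO libraries, most of it Socs3.

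Of 8 other genes of the 3 families, 2 rose and 1 fell (median log2 fold change 0.03), beside 8.0% and 6.84% of all tested genes. Jak2, the kinase of interferon gamma and interleukin 12 receptors, was at 167, 190 and 173 CPM in controls and 218, 239 and 241 CPM in Rnmt cKO libraries, with a log2 fold change of 0.40 and an adjusted p of 0.000824. Stat2, a factor of type I interferon signalling, was at 51.0, 48.7 and 48.7 CPM against 74.1, 65.0 and 58.5 CPM (0.41, adjusted p = 0.00346). All libraries of both genes lay higher in Rnmt cKO cells. Stat6, the factor of interleukin 4, was at 228, 227 and 204 CPM against 169, 173 and 196 CPM (-0.29, adjusted p = 0.0302). The Stat2 call was lost without Rnmt cKO 1, and the Stat6 call when control 1 or 2 or Rnmt cKO 1 or 2 was left out and in 5 further alternatives (adjusted p up to 0.227). The log2 fold changes of Socs2 (-0.05), Socs4 (-0.06), Socs5 (-0.12), Socs6 (0.22) and Socs7 (0.11) did not pass the threshold, with adjusted p between 0.262 and 0.948.

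**Figure D4:**
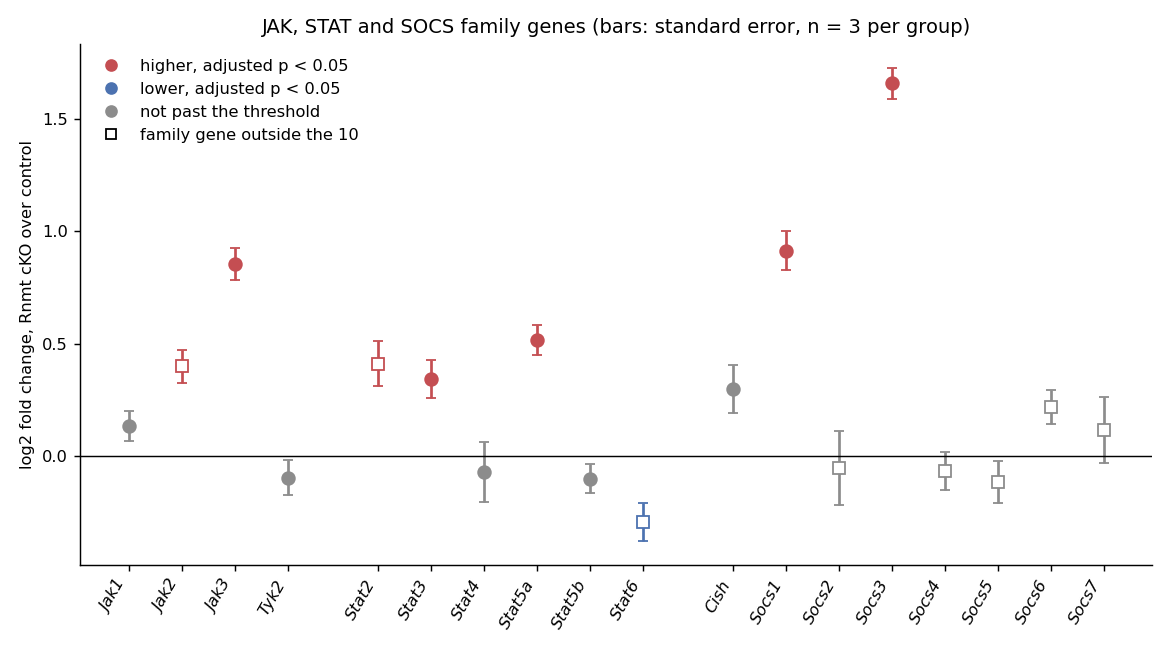
Log2 fold change, Rnmt cKO over control, of 18 JAK, STAT and SOCS family genes, with the standard error as bars and colours for genes past the threshold on the edgeR exact test adjusted p; filled circles are the 10 genes and open squares the other 8. Socs3 (1.66), Socs1 (0.91) and Jak3 (0.85) stand apart from the others, and Stat6 (-0.29) is the lone gene called lower.

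Receptor subunits that signal through JAKs changed in both directions. Of 18 tested, 4 fell and 4 rose, with a median log2 fold change near 0 (-0.0035). The shares over all tested genes were 6.84% lower and 8.0% higher. Il7r, the receptor chain for interleukin 7, was at 381, 386 and 336 CPM in controls and 203, 191 and 175 CPM in Rnmt cKO libraries, with a log2 fold change of -0.96 (edgeR exact test, adjusted p = 2.44e-17). Il2ra, a chain of the interleukin 2 receptor, was at 38.3, 49.4 and 58.0 CPM against 33.5, 35.3 and 30.1 CPM (-0.56, adjusted p = 0.00314). Both were lower in every Rnmt cKO library, and the Il2ra call was lost in 3 of 16 alternatives, scaling by library size alone and leaving out control 3 among them (adjusted p up to 0.0764). Il10ra, a chain of the interleukin 10 receptor, was at 19.8, 16.2 and 20.8 CPM against 35.8, 29.2 and 28.5 CPM (0.72, adjusted p = 3.66e-05). Il21r was at 171, 181 and 186 CPM against 258, 235 and 234 CPM (0.44, adjusted p = 9.78e-05). The other higher calls were Il2rg, the common gamma chain itself, and Il2rb (0.41 and 0.39). The Il2rg call held in 16 of 16 alternatives and the Il2rb call in 14. That of Il2rb was lost without control 3 and with the replicate number as a block. Il10rb (-0.42, adjusted p = 0.0217) and Il4ra (-0.26, adjusted p = 0.0406) were the other lower calls. The Il10rb call held in 8 of 16 alternatives and the Il4ra call in 6, and without control 1, 2 or 3 or Rnmt cKO 1 or 2 that of Il4ra was lost (adjusted p up to 0.323). Without control 1, 2 or 3 or Rnmt cKO 1 or 2 the count of lower receptor genes was 2, and with scaling by library size alone 1 was lower and 5 were higher.

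Of 11 other inhibitors of the pathway, phosphatases, PIAS proteins and adaptors among them, 1 rose and 0 fell (median log2 fold change 0.06). These counts are near the shares of all tested genes, 8.0% higher and 6.84% lower. The higher gene was Ptpn1, a phosphatase of JAK2 and TYK2, at 158, 134 and 153 CPM in controls and 183, 177 and 185 CPM in Rnmt cKO libraries (0.29, adjusted p = 0.0205). That call was lost in 7 of 16 alternatives, among them those that left out control 2 or 3 or Rnmt cKO 1 or 2.

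Genes known to be induced through the STATs were counted in 3 lists, which share members with each other and with the lists above. Their counts stand beside 8.0% higher and 6.84% lower over all tested genes. Of 13 genes induced through STAT5, 5 rose and 2 fell (median log2 fold change 0.23). Pim1, a survival kinase, was at 91.5, 94.5 and 77.1 CPM in controls and 216, 204 and 230.4 CPM in Rnmt cKO libraries, with a log2 fold change of 1.30 and an adjusted p of 3.64e-31. The cytokine gene Osm (0.78, adjusted p = 1.07e-08) and the survival gene Bcl2 (0.63, adjusted p = 7.32e-08) rose too, and the receptor genes Il2ra and Il4ra were the lower calls, both lost with scaling by library size alone, which gave 6 higher and 0 lower. The count of higher genes in the list was 3 without control 2, control 3 or Rnmt cKO 2.

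Of 8 tested genes induced through STAT3, 5 rose and 0 fell, with a median of 0.63. Bcl3, a coactivator of NF-kB, was at 33.2, 29.1 and 25.2 CPM in controls and 74.0, 79.6 and 76.8 CPM in Rnmt cKO libraries, with a log2 fold change of 1.40 and an adjusted p of 1.26e-29. The others were Pim1, Junb, Maff and Fos, of which Maff (1.27, adjusted p = 0.0128) rested on 7 to 49 counts. The count was 3 without control 2, control 3 or Rnmt cKO 2.

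Of 11 interferon-induced genes, 9 rose and 0 fell, with a median of 0.58. Isg15 was at 7.41, 6.19 and 5.30 CPM in controls and 22.3, 10.97 and 20.1 CPM in Rnmt cKO libraries (1.49, adjusted p = 1.80e-06). Mx1 (1.21, adjusted p = 3.76e-05), Ifit3 (1.04, adjusted p = 0.0132) and Oas1a (1.01, adjusted p = 0.00595) rose as well, of which Ifit3 overlapped between groups. All 4 of these were highest in Rnmt cKO 1, and the count was 4 without Rnmt cKO 1, 5 without control 3 and 6 without control 2.

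**Figure D5:**
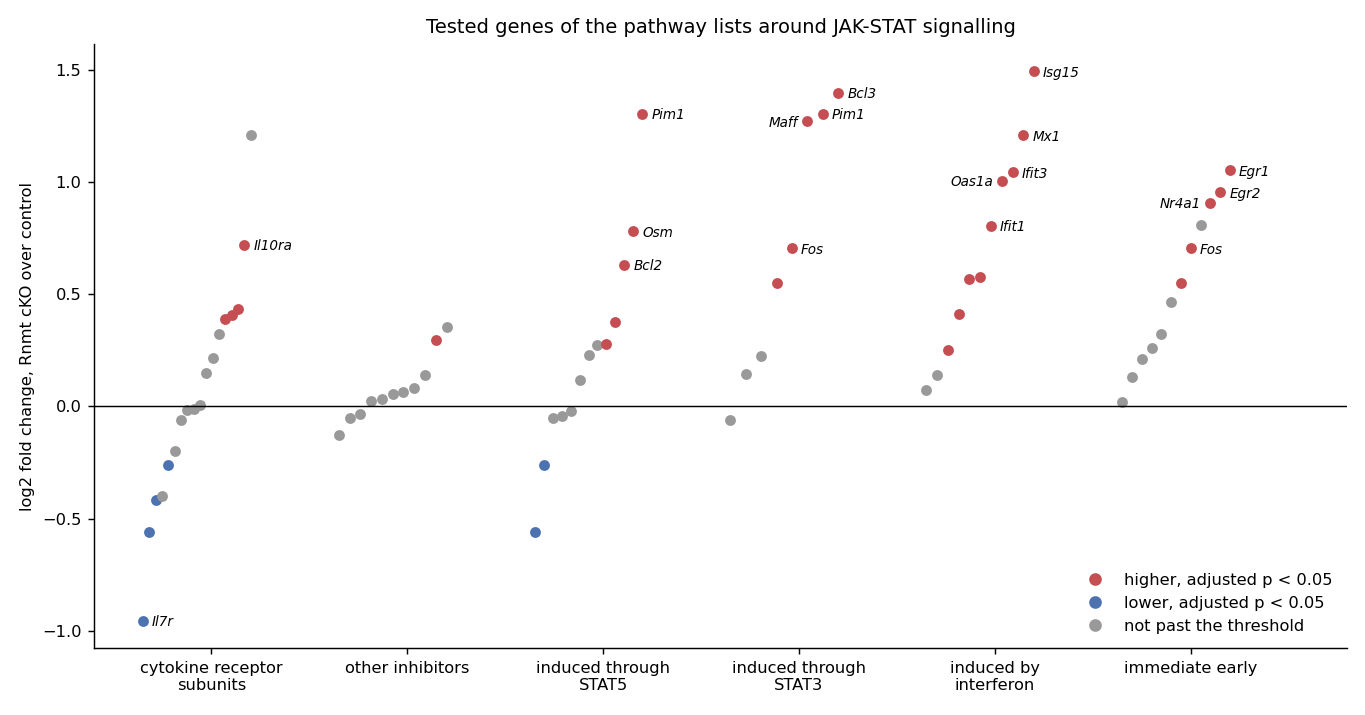
Log2 fold change, Rnmt cKO over control, of each tested gene in 6 lists around JAK-STAT signalling, with genes past the threshold in red (higher) or blue (lower) and those beyond 0.6 in either direction named; a gene in 2 lists is drawn in both. The interferon list holds 9 red points of 11, the receptor list 4 red and 4 blue of 18, and the list of other inhibitors 1 red of 11.

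Other measured features moved with the group, beside calls for 8.0% (higher) and 6.84% (lower) of all tested genes. Of 12 immediate early genes, which stimulation or handling of cells induces, 5 rose and 0 fell (Egr1 1.05, adjusted p = 4.60e-14; Egr2 0.96, adjusted p = 1.14e-10; Nr4a1 0.91, adjusted p = 4.88e-13; Fos 0.71, adjusted p = 0.0167; and Junb 0.55, adjusted p = 0.00289). Their summed level was 406 to 471 CPM in controls and 561 to 693 CPM in Rnmt cKO libraries, and the count was 3 without control 3, 9 with scaling by library size alone and 8 with the share of reads in no gene as a covariate. Socs3 and Socs1 are themselves inducible genes, and the part of stimulation or handling in their rise was not tested.

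The label of naïve CD4 T cells was checked against marker lists, whose counts stand beside 8.0% higher and 6.84% lower over all tested genes. The 13 markers of naïve CD4 T cells summed to 7127 to 7832 CPM in controls and 7944 to 9081 CPM in Rnmt cKO libraries, with 4 higher and 2 lower, and the cytokine genes Il4 and Il17a had 0 counts in every library. B cell markers summed to 336 to 400 CPM and 251 to 315 CPM (6 of 11 higher, 1 lower), NK cell markers to 40.1 to 57.0 and 26.4 to 32.2 CPM (1 of 3 tested higher, 2 lower) and CD8 T cell markers to 21.7 to 23.3 and 13.5 to 17.3 CPM (both lower). Markers of regulatory T cells, cells rich in Il2ra and poor in Il7r, summed to 258 to 300 CPM and 233 to 254 CPM (1 of 7 higher, 2 lower). Their defining marker Foxp3 fell from 23.2, 27.7 and 25.3 CPM to 12.5, 14.8 and 13.2 CPM (-0.91, adjusted p = 1.49e-08), beside the lower Il2ra. Tnfrsf4, of the same list, rose (0.64; edgeR exact test, adjusted p = 3.91e-06). Ikzf2 (-0.32), Lrrc32 (-0.33), Ctla4 (-0.13) and Tnfrsf18 (-0.01) did not pass the threshold. The median log2 fold change of the list was -0.32. With the share of reads in no gene as a covariate 4 of 7 were lower and 1 higher. Leaving out control 3 gave 1 lower and 1 higher. Memory and effector markers summed to 214 to 241 CPM and 203 to 215 CPM (1 of 7 tested higher, 2 lower).

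Myeloid and dendritic cell markers summed to 9.08 to 11.5 CPM in controls and 20.6 to 43.8 CPM in Rnmt cKO libraries, with 3 of 6 tested genes higher, 0 lower and the defining marker Cd14 at 3 counts or fewer in every library. The neutrophil gene S100a9 was at 0.118, 0.200 and 0.221 CPM in controls and 2.54, 8.44 and 7.80 CPM in Rnmt cKO libraries. Neutrophils also express Socs3. The part of neutrophils and of other cell types in these results was not tested.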

How the data were processed

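Gene expression was measured in 3 control and 3 Rnmt cKO libraries of rRNA-depleted total RNA. Per the submitters' processing notes and the study's methods, the authors aligned reads to mm10 with STAR 2.5.2b, using GENCODE vM12 (basic). They deposited the raw counts of uniquely mapped reads per gene, for either strand and for each strand. Lines that name no gene (50.5% to 60.7% of reads) were left out. The column of sense reads was used, since the deposited normalized signal of the authors' edgeR table was that column divided by 1 constant per library for 100% of its genes, within 0.1%. That table also paired identifiers with symbols. Its log2 fold changes, log2 mean abundances, p-values and adjusted p-values are the authors' own comparison and were not used.

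The test was the one the study used, the exact test of edgeR (4.0.16, in R 4.3.3) on tagwise dispersions and TMM-scaled counts. It took in genes above 1 CPM in 3 or more samples, with Benjamini-Hochberg adjustment over all 12336 such genes. This filter, which the study's methods state, gave 844 lower and 987 higher genes. Requiring more than 1 CPM in all 6 samples gave 753 lower and 845 higher of 11232 tested genes. Those are the numbers of lower and higher genes that the study reports. CPM are scaled by TMM, fold changes have Rnmt cKO as the numerator, and standard errors come from the log2 CPM of the libraries (prior count 2). RPKM used the union of exons in GENCODE vM21 basic on mm10, which also gave coordinates. Wilson intervals and the permutation test used scipy 1.17.1. Within each group, every pair of libraries differed beyond counting noise (chi-square per degree of freedom 3.85 to 25.2), so none was taken for a library deposited more than once. This alone does not show that they came from separate animals, for which the study's legend is the source. The code was tested on simulated data.

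The 10 genes and the gene lists were chosen with earlier results of these data known. All 10 and 8 other family genes were named, and from each further pathway list at most the 4 genes past the threshold with the largest change, plus the other called genes of lists with few calls, which were named after their values were seen, as were the genes named from marker lists. The alternatives were other scalings, filters and tests (edgeR quasi-likelihood, DESeq2 1.42.0), unstranded counts, a replicate block, a covariate for the share of reads in no gene, and leaving out each library. A gene of these lists is not reported here.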

Additional observations from a re-analysis of the deposited data

Results flagged for a closer look

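Reads on the strand opposite to each of the 10 genes belong to no comparison above, and for 2 genes they were higher in every Rnmt cKO library than in any control. Over Stat3 they were 11, 12 and 16 counts in controls and 26, 34 and 22 counts in Rnmt cKO libraries, a mean of 1.42 and 2.53 CPM. Stat5a, which rose, lies on that strand and overlaps the end of Stat3. Over Cish they were 1, 2 and 1 counts in controls and 4, 5 and 14 counts in Rnmt cKO libraries, a mean of 0.143 and 0.70 CPM. Neither difference was tested. For the other genes the antisense reads overlapped between groups once scaled to CPM.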

How the results depend on the processing

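Over 16 alternatives, 150 of 160 log2 fold changes of the 10 genes kept their direction and their side of the threshold. Socs3, Socs1, Jak3 and Stat5a rose past it in all 16, with log2 fold changes of 1.59 to 1.78, 0.86 to 1.04, 0.81 to 0.98 and 0.44 to 0.64. From 4 to 6 of the 10 genes rose and 0 fell, and the median log2 fold change was 0.29 to 0.34 with 1 library left out and 0.44 with scaling by library size alone. That scaling turned the direction of Tyk2 (0.028), Stat4 (0.051) and Stat5b (0.022), none past the threshold, and gave 535 lower and 1938 higher genes in place of 844 and 987, so that the share of higher calls went from 53.9% to 78.4%. With 1 library left out Stat4 ran from -0.18 to 0.042, the latter without control 3. Cish passed with library size alone (0.42), with the share of reads in no gene as a covariate (0.27) and without Rnmt cKO 3. With that covariate 1466 genes were lower and 1696 higher. With 1 library left out, 547 to 1285 genes were lower and 643 to 1221 were higher. Leaving out control 1 gave 559 lower genes, control 2 gave 560 lower and 656 higher, Rnmt cKO 2 gave 547 lower and 643 higher, and Rnmt cKO 3 gave 1285 lower. With the replicate number as a block, 276 genes were lower and 431 higher, and the call of Stat3 was lost (0.34, adjusted p = 0.12). The labels do not say what the replicate numbers mark. Deviations of same-numbered libraries from their group means correlated at -0.21, -0.02 and -0.35. With 3 libraries in each group, such values cannot show whether the numbers mark pairs. The Stat5a share differed by 8.31 to 9.53 percentage points with 1 library left out and by 9.02 in unstranded counts. The causes of these shifts were not tested. Each of the 10 genes had 197 counts or more in every library. For Jak1, Tyk2, Stat4 and Stat5b a missed threshold does not show equal levels.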
